A study of Mus musculus with 8 samples.

Results

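The genes described here encode the factors that start and extend protein chains on the ribosome, taken as every gene on the array whose symbol starts with Eif or Eef followed by a digit. The array held 68 such symbols. For each gene the brightest probe was used, provided it was well above its local background on at least 4 of the 8 arrays. That left 67 genes among 21412 features tested, 14808 of them with a gene symbol, and all 67 were well above background on all 8 arrays. Eif4e1b, a germline relative of the cap-binding protein, was not measured, since one of its probes was above background on 0 and the other on 1 of the 8 arrays. Probes were matched to symbols through their RefSeq accessions, and some of the 67 encode enzymes that modify a factor rather than a factor itself.

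Initiation begins when eIF2 brings the initiator tRNA to the small ribosomal subunit, with eIF1, eIF1A and eIF3 bound to it. The eIF4 proteins recruit the mRNA through its cap and unwind it, and eIF5 and eIF5B then complete the joining of the subunits. Elongation is driven by eEF1A, which delivers aminoacyl-tRNA, and by eEF2, which moves the ribosome along the message. The insulin-like growth factor 1 receptor, encoded by Igf1r, signals through Akt and mTOR to several of these proteins, mainly by changing their phosphorylation, which an RNA array does not measure.

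Heart RNA of male C57BL6 mice was measured in 8 samples on 1-colour arrays, 4 of them double transgenic (dtg, merCremer/+ IGFloxP/IGFloxP) and 4 control samples that carried the recombinase without a floxed receptor allele. Both groups were given 4OH-tamoxifen at 8 months, as 500 µg in 100 µl of peanut oil on each of 10 days, to remove exon 3 of the receptor gene in animals with floxed alleles, and hearts were taken 6 weeks later. The labels give neither the promoter that drives merCremer nor the share of cells in which excision took place, and the controls carried the recombinase and received the drug too. The labels number the samples without stating that each came from its own animal, so p-values cover only how far these samples vary, and part of that may be technical. Since RNA of heart tissue was measured, fewer cells of a type and less RNA per cell cannot be told apart.

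Values are log2 signals minus the 75th percentile of their own array, so 0 is the brightness of that percentile and 1 unit is a doubling of signal. Between 59.1% and 71.4% of probes were well above background per array. The arrays lay on 2 slides, with dtg 1, dtg 4, control 1 and control 2 on slide 1 and dtg 2, dtg 3, control 3 and control 4 on slide 2. Each array's highest correlation with any other array was 0.984 for dtg 3, 0.988 for dtg 4 and 0.984 for control 4 and at least 0.9945 for the other 5, and results were also computed with these 3 left out. By the mean correlation with the other arrays, control 4 (0.9804) and control 3 (0.9812) were lowest, with dtg 3 at 0.9814 and dtg 4 at 0.9824. Igf1r itself was -0.30, -0.21, 0.17 and 0.40 in dtg hearts 1 to 4 and 0.18, 0.21, 0.38 and 1.04 in control hearts 1 to 4. The ranges overlapped, the position of the probe relative to the excised exon was not known, and the difference of -0.43 (SE 0.24) did not pass the test (limma with Benjamini-Hochberg adjustment, adjusted p = 1). Cardiomyocyte markers were measured in 9 of 9 cases, with a summed level (log2 of their added signals on the same scale) of 11.55 to 11.72 in dtg hearts and 11.60 to 11.72 in control hearts. Atrial markers, by contrast, ranged from 6.16 to 9.04 in dtg hearts and from 5.93 to 9.41 in control hearts, and the 5 erythroid markers measured all had higher means in dtg, with sums of 9.59 to 9.99 in dtg hearts and 9.04 to 9.91 in control hearts. Smooth muscle markers summed to 5.65 to 5.80 in dtg hearts and 5.75 to 5.94 in control hearts. The erythroid Hbb-b1, the leukocyte Cd68, the neuronal Rbfox3 and the skeletal Myh1 and Myh4 were not measured here. The part of these markers in the values below was not tested.

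For translation factor RNA, dtg hearts were set against control hearts gene by gene. Of the 67 genes, 0 passed the adjusted threshold of 0.05 in limma, where 0% of all features did. At an unadjusted p under 0.05 there was 1 of 67, Eif2s3x, higher in dtg, against 0.743% of all features in either direction and 0.612% higher in dtg. The dtg mean was above the control mean for 35 genes and below it for 32, with a median difference of 0.0031 on the log2 scale beside 0.015 over all features. This split was not stable: the number above 0 was 56 of 67 with normexp background correction, 46 with array weights, 23 without dtg 3, 25 without control 1 and 43 without control 4. The groups did not overlap for 1 gene, Eif4g3, against 0.519% of features with a value on every array. For 56 of the 67 genes (83.6%) the difference was smaller than 0.1 in size, which held for 59.6% of all features and for 77.3% of the 8568 features that were on average brighter than the 75th percentile. The 57 translation factor genes in that bright range included 49 such genes (86.0%). The median standard error was 0.13 among the 67 and 0.18 among all features. As a guide to the sizes that can be seen, Eif2s3x at 0.40 (SE 0.15) had an unadjusted limma p of 0.029. Eif2s3y at 0.24 (SE 0.12) had one of 0.094.

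**Figure D1:**
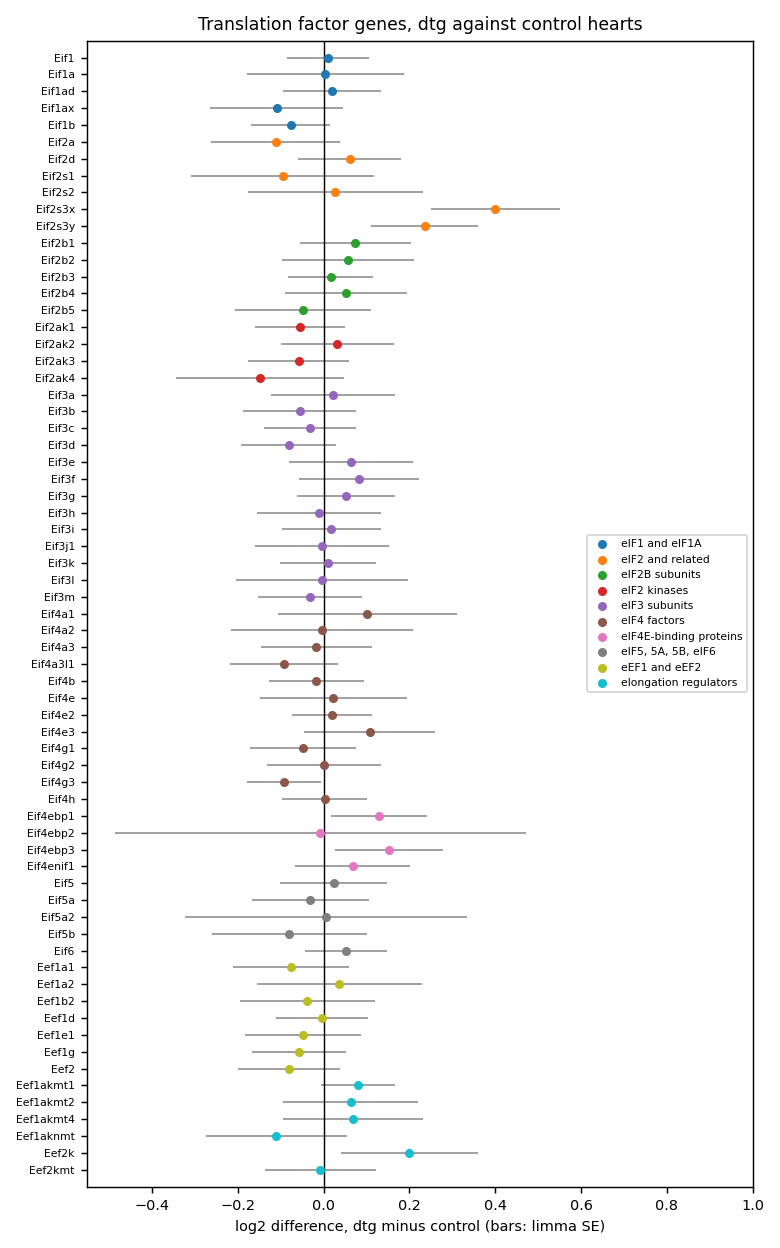
Log2 difference, dtg minus control, for each of the 67 translation factor genes, grouped and coloured by role, with bars of 1 limma standard error (4 dtg and 4 control hearts). Eif2s3x lies farthest from 0 at 0.40, and Eif4ebp2 has the widest error at 0.48.

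Among the factors that carry the initiator tRNA, the X- and Y-linked copies of the eIF2 gamma subunit had the 2 smallest unadjusted p of all 67 genes. Eif2s3x was 1.45, 1.28, 1.75 and 1.81 in dtg hearts 1 to 4 and 1.17, 1.37, 1.0 and 1.15 in control hearts 1 to 4. Its groups overlapped only through dtg 2, which lay under control 2. The difference was 0.40 (SE 0.15), a 1.32-fold higher signal in dtg, with an unadjusted p of 0.029 and an adjusted p of 1 in limma. Slide 1 alone gave 0.36 and slide 2 alone 0.44. A second Eif2s3x probe went the other way, at -0.35, -0.72, -0.62 and -0.04 in dtg hearts and -0.20, -0.35, -0.59 and -0.16 in control hearts, a difference of -0.11. The mean of both probes gave 0.15.

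Eif2s3y, the copy on the Y chromosome, was 1.96, 2.03, 2.09 and 2.20 in dtg hearts 1 to 4 and 1.89, 1.97, 1.93 and 1.56 in control hearts 1 to 4. Control 4 was the lowest heart, and dtg 1 lay just under control 2, so the groups overlapped by that one heart. The difference of 0.24 (SE 0.12) had an unadjusted p of 0.094, and it was 0.14 without control 4. It was 0.06 with dtg 3, dtg 4 and control 4 left out and slide kept as a block. The Y copy minus the X copy, taken within each array, differed by -0.16 between the groups and did not pass the test (SE 0.14, two-sided exact permutation p = 0.286). With the mean of both Eif2s3x probes in place of the brighter one, the direction turned, to 0.089. The 2 genes encode nearly the same protein and are shown here by the bases around their start of transcription, from RefSeq with build GRCm38.p6. The windows run from 50 bases before the start to 30 bases from it, chrX:94212622-94212701 on the minus strand and chrY:1010545-1010624 on the plus strand, each 5′ to 3′, with the longest run of bases that both share in capitals:
Eif2s3x: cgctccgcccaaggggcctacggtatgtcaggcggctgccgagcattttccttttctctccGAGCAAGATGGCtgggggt
Eif2s3y: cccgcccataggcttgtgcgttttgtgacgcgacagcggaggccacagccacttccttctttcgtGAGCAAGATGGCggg
The shared run is 12 bases long and holds AAGATGGC, the core letters of the YY1 motif. In both windows it lies after the start of transcription and contains ATG. Whether it covers the start codon and coding bases of the 2 similar proteins was not tested, so it need not be a promoter element. On either strand of the 300-base RefSeq windows these letters were found for 6 of the 54 translation factor genes with a window (11.1%) and for 3.19% of 27025 genes. Those 6 were Eef1e1, Eif2s3x, Eif2s3y, Eif3f, Eif4a1 and Eif4e. The ETS-type letters CCGGAAGT were found for 9 of 54 (16.7%) against 4.31% of all genes, and the TATA-box letters TATAAA for 5 of 54 (9.26%) against 15.7%. These matches describe letters in a window and do not show binding.

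In the remaining eIF2 genes the groups overlapped. Eif2s1, the alpha subunit that stress kinases phosphorylate, was 1.85, 2.0, 1.93 and 2.31 in dtg hearts 1 to 4 and 1.86, 1.90, 1.99 and 2.73 in control hearts 1 to 4. Control 4 and dtg 4 were the 2 highest hearts. The difference was -0.10 (SE 0.21). Eif2a, a separate protein that can also bind initiator tRNA, was 0.01, 0.02, 0.05 and 0.45 in dtg hearts and 0.06, 0.12, 0.32 and 0.49 in control hearts. Its difference was -0.11 (SE 0.15), with dtg 4 among the control values. Over the 6 genes of this role, 4 were above and 2 below 0, with a median of 0.04.

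The 5 subunits of eIF2B, which reloads eIF2 with GTP, had a median difference of 0.05, with 4 above and 1 below 0. Eif2b5, its catalytic epsilon subunit, was 1.35, 1.51, 1.31 and 0.85 in dtg hearts 1 to 4 and 1.37, 1.28, 1.44 and 1.13 in control hearts 1 to 4, lowest in dtg 4, a difference of -0.05 (SE 0.16). Of the 4 kinases that phosphorylate eIF2, 3 had lower means in dtg hearts, with a median of -0.06. Eif2ak4, or GCN2, the kinase that senses uncharged tRNA, was -0.76, -0.51, -0.43 and -0.41 in dtg hearts 1 to 4 and -0.64, -0.67, -0.37 and 0.15 in control hearts 1 to 4. The groups overlapped, control 4 was the highest heart, and the difference of -0.15 (SE 0.20) became 0.03 without it. The other 3 kinases, Eif2ak1 (HRI), Eif2ak2 (PKR) and Eif2ak3 (PERK), had differences of -0.05, 0.03 and -0.06.

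The factors eIF1 and eIF1A govern start codon choice, and 5 genes were grouped with them by name. The differences of these 5 genes lay between -0.11 for Eif1ax and 0.02 for Eif1ad. Eif1b was 3.06, 3.13, 2.98 and 3.16 in dtg hearts 1 to 4 and 3.13, 3.13, 3.16 and 3.22 in control hearts 1 to 4. The hearts lay within 0.24 of each other and overlapped between groups, for a difference of -0.08 (SE 0.09). Eif1, its close relative, ranged from 6.36 to 6.57 in dtg hearts and from 6.37 to 6.49 in control hearts, a difference of 0.01 (SE 0.09).

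The 13 genes of eIF3, the large complex that holds the small subunit and the mRNA together, were the largest role group, and all 13 differed by less than 0.1. Their median was -0.0031, with 6 above and 7 below 0. Eif3d, which can itself bind the cap of some mRNAs, was lowest at -0.08 (SE 0.11), and Eif3f was highest at 0.08 (SE 0.14). Eif3l had the widest range over the 8 hearts in this group, 0.87, from 4.02 in control 1 to 4.89 in control 4.

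The eIF4 proteins recognise the cap, unwind the leader and bridge to the ribosome, and their 12 genes split into 6 above and 6 below 0. Eif4e, the cap-binding protein, was 2.14, 2.32, 2.30 and 2.55 in dtg hearts 1 to 4 and 2.09, 2.23, 2.14 and 2.75 in control hearts 1 to 4. The 2 hearts numbered 4 were the highest, and the difference was 0.02 (SE 0.17). Eif4g1, the main scaffold, was 4.42, 4.14, 4.51 and 4.39 in dtg hearts and 4.44, 4.54, 4.21 and 4.46 in control hearts, overlapping, with a difference of -0.05 (SE 0.12). Eif4g3, a second scaffold, was 1.25, 1.28, 1.21 and 1.26 in dtg hearts 1 to 4 and 1.40, 1.32, 1.29 and 1.37 in control hearts 1 to 4.

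Every dtg value of Eif4g3 lay below every control value, but by a small step: the difference was -0.09 (SE 0.09), a signal 1.07-fold lower in dtg, with an unadjusted p of 0.321. Slide 1 alone gave -0.10 and slide 2 alone -0.08, but the difference was 0.09 after normexp background correction. Its second probe differed by -0.15, with a range of 1.37 over the 8 hearts. Eif4a3l1, a relative of the exon junction helicase gene Eif4a3, was 2.02, 1.92, 2.19 and 2.07 in dtg hearts 1 to 4 and 2.07, 2.18, 1.94 and 2.38 in control hearts 1 to 4. These values overlapped, and the difference was -0.09 (SE 0.13). A near-identical relative can share signal with it on a probe, so the split between Eif4a3l1 and Eif4a3 is uncertain.

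**Figure D2:**
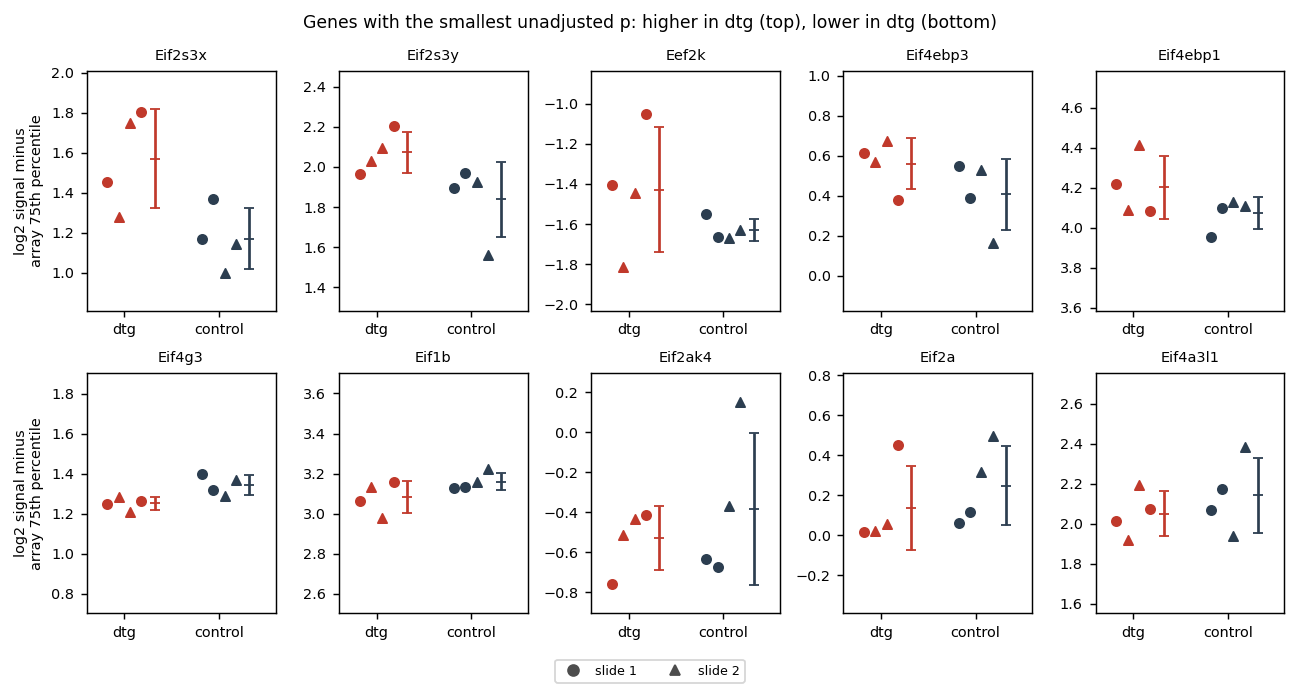
Log2 signal minus the array's 75th percentile for the 5 genes with the smallest unadjusted p among those higher in dtg (top) and the 5 among those lower in dtg (bottom), dtg hearts left and control hearts right, circles for slide 1 and triangles for slide 2, bars for mean and SD of 4 hearts. The dtg and control points overlap in every panel except Eif4g3, where all 4 dtg hearts lie at or below 1.28 and all 4 control hearts at or above 1.29.

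The eIF4E-binding proteins hold eIF4E back from initiation and are known substrates of mTOR. Eif4ebp1 was 4.22, 4.09, 4.42 and 4.08 in dtg hearts 1 to 4 and 3.95, 4.10, 4.13 and 4.11 in control hearts 1 to 4. Dtg 1 and dtg 3 were above all controls while dtg 2 and dtg 4 were among them, and the difference was 0.13 (SE 0.11), 0.12 within slide 1 and 0.13 within slide 2. Eif4ebp3 was 0.62, 0.57, 0.68 and 0.38 in dtg hearts and 0.55, 0.39, 0.53 and 0.16 in control hearts. The lowest heart of each group was number 4, and the difference was 0.15 (SE 0.13).

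Eif4ebp2, measured by 1 kept probe, varied more than any of the other 66 genes. It was 1.86, 1.83, 1.21 and 0.78 in dtg hearts 1 to 4 and 2.19, 1.93, 1.54 and 0.05 in control hearts 1 to 4, a range of 2.14 or 4.4-fold in signal. Control 4 and dtg 4 were the 2 lowest hearts. These hearts were also lowest on the second Eif3c probe, at 1.87 in dtg 4 and 2.10 in control 4, but not on its first. With 1 probe for Eif4ebp2, variation of the gene and of the probe cannot be told apart. The group difference was -0.01 (SE 0.48), being -0.74 within slide 1 and 0.73 within slide 2. With Eif4enif1, which carries eIF4E into the nucleus, the 4 genes of this role had a median difference of 0.10, with 3 above and 1 below 0.

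Among the genes of eIF5, eIF5A, eIF5B and eIF6, which include late initiation factors, Eif5a2 differed between the slides and not detectably between the genotypes. Eif5a and Eif5a2 encode the hypusine-bearing factor eIF5A, which helps the ribosome past difficult peptide bonds. Eif5a2 was 0.15, -0.51, -0.68 and 0.17 in dtg hearts 1 to 4 and 0.26, 0.28, -0.87 and -0.58 in control hearts 1 to 4. All 4 hearts on slide 1 lay above all 4 hearts on slide 2 in both groups. Slide 2 minus slide 1 was -0.87 (SE 0.11) with group in the model (limma, adjusted p = 0.0044), whereas dtg minus control was 0.01 (SE 0.33). It was the 1 gene of 67 past the adjusted threshold between slides, where 10.2% of all features were and 9.9% were lower on slide 2. At an unadjusted p under 0.05 between slides there were 3 of 67, Eif5a2, Eef1akmt4 at 0.36 and Eif4a1 at 0.43, against 21.1% of all features. Slide differences were rarer in the bright range, where 154 of 8568 features passed the adjusted threshold and 729 had such an unadjusted p. Of the 57 translation factor genes in that range, 0 passed and 2 had such a p.

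Eif5a itself was 3.89, 3.84, 3.73 and 3.55 in dtg hearts 1 to 4 and 4.0, 3.84, 3.76 and 3.52 in control hearts 1 to 4. The groups overlapped, with the lowest heart in each being number 4, and the difference was -0.03 (SE 0.14). Eif6, which keeps the large subunit from joining too early, ranged from 2.08 to 2.25 in dtg hearts and from 2.04 to 2.19 in control hearts, a difference of 0.05 (SE 0.10). Eif5b, the GTPase of subunit joining, was lowest of the 5 genes at -0.08 (SE 0.18).

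Of the 6 genes for eEF1 and eEF2 proteins, 5 had lower means in dtg hearts, by 0.08 at most, as did Eef1e1, which shares only the name, and 0 of these 7 reached an unadjusted p under 0.05. The direction of those 5 was not stable. Each turned above 0 in 1 (Eef2) to 8 (Eef1d) of 22 processing alternatives, with highest values from 0.19 for Eef1g to 0.28 for Eef1d. Eef1a1, the widely expressed form of eEF1A, was 4.87, 4.95, 4.79 and 5.12 in dtg hearts 1 to 4 and 4.98, 4.78, 5.0 and 5.27 in control hearts 1 to 4. Hearts numbered 4 were the highest of each group, and the difference was -0.08 (SE 0.13). Eef1a2, the form of heart, skeletal muscle and neurons, was 3.98, 4.01, 4.24 and 3.42 in dtg hearts and 3.97, 3.94, 4.03 and 3.58 in control hearts. Here hearts numbered 4 were the lowest, and the difference was 0.04 (SE 0.19), -0.25 within slide 1 and 0.32 within slide 2.

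Eef2, the translocase, was 5.89, 5.98, 5.87 and 5.65 in dtg hearts 1 to 4 and 5.93, 5.93, 6.09 and 5.76 in control hearts 1 to 4. The groups overlapped and the difference was -0.08 (SE 0.12). The exchange factor subunits of eEF1 differed by -0.04 (SE 0.16) for Eef1b2, by -0.0032 (SE 0.11) for Eef1d and by -0.06 (SE 0.11) for Eef1g. Eef1e1, a scaffold part of the multi-tRNA synthetase complex despite its name, was 0.25, 0.26, 0.25 and 0.48 in dtg hearts and 0.20, 0.25, 0.29 and 0.68 in control hearts. In both groups the heart numbered 4 was far above the others, and the difference was -0.05 (SE 0.14).

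The 6 genes for enzymes that modify elongation factors had a median difference of 0.07, with 4 above and 2 below 0. Eef2k, the kinase that inhibits eEF2, was -1.40, -1.81, -1.44 and -1.05 in dtg hearts 1 to 4 and -1.55, -1.67, -1.67 and -1.63 in control hearts 1 to 4. The dtg hearts surrounded the narrow control range, with dtg 2 below it and the other 3 above. The difference of 0.20 (SE 0.16) was 0.38 within slide 1 and 0.02 within slide 2, 0.07 without dtg 4, and -0.03 on a second probe. The methyltransferase genes Eef1akmt1, Eef1akmt2, Eef1akmt4, Eef1aknmt and Eef2kmt had differences between -0.11 and 0.08.

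Isoforms were compared through the difference between their 2 signals within each array, since probes of different genes bind with different strength and their levels cannot be set side by side. In 10 pairs tested with two-sided exact permutation tests, whose smallest possible p was 0.0286, 0 passed at the unadjusted or adjusted threshold of 0.05, and every adjusted p was 0.914. Eef1a2 minus Eef1a1 was -0.89, -0.94, -0.55 and -1.69 in dtg hearts 1 to 4 and -1.01, -0.84, -0.97 and -1.69 in control hearts 1 to 4. Hearts numbered 4 gave the lowest value in both groups. The groups differed by 0.11 (SE 0.31, exact permutation p = 0.629), which was -0.37 within slide 1, 0.59 within slide 2 and -0.08 without control 4.

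Among the helicases, Eif4a2 minus Eif4a1 differed by -0.11 (SE 0.12, exact permutation p = 0.4). Both genes were highest in dtg 3 or control 4 and lowest in control 1, with Eif4a2 ranging over 1.0 and Eif4a1 over 0.89 across the 8 hearts. For the cap-binding proteins, Eif4e2 minus Eif4e differed by -0.0040 (SE 0.19) and Eif4e3 minus Eif4e by 0.08 (SE 0.17). For the scaffolds, Eif4g2 minus Eif4g1 differed by 0.05 (SE 0.12) and Eif4g3 minus Eif4g1 by -0.04 (SE 0.11). Eif4ebp2 minus Eif4ebp1 differed by -0.14 (SE 0.57), the widest error of the 10. Eif5a2 minus Eif5a differed by 0.04 (SE 0.34) and Eif1b minus Eif1 by -0.09 (SE 0.09). These errors leave room for differences in either direction, so they do not show that the isoforms behaved alike.

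**Figure D3:**
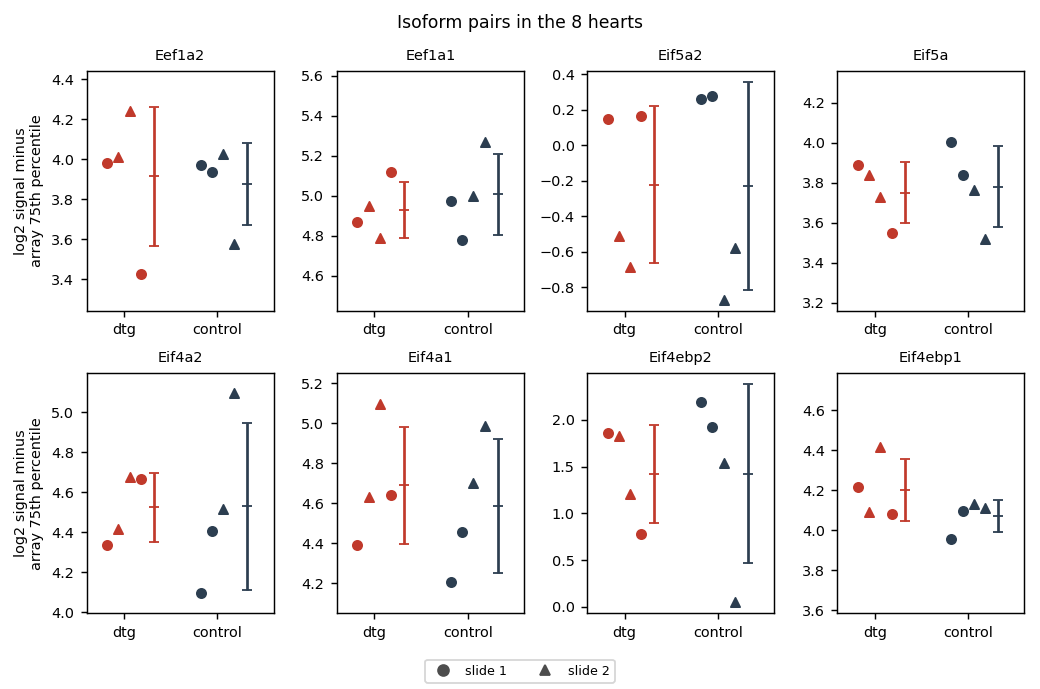
Log2 signal of each gene, scaled as in the text, for 4 of the isoform pairs, 1 panel per gene. The pairs are Eef1a2 and Eef1a1, Eif5a2 and Eif5a, Eif4a2 and Eif4a1, and Eif4ebp2 and Eif4ebp1. Dtg hearts are left and control hearts right, with circles for slide 1 and triangles for slide 2. Dtg 4 is the lowest heart for Eef1a2, at 3.42, and control 4 the highest for Eef1a1, at 5.27.

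The 67 genes were also followed heart by heart. Control 4 was the highest heart for 27 of the 67 genes (40.3%), against 22.7% of all features, and control 1 was the lowest for 23 (34.3%), against 16.3%. The matching shares among features of the bright range were not computed, so whether this is particular to translation factors was not tested. More than 0.3 from the gene's mean over the 8 hearts lay 3, 1, 6 and 11 genes in dtg hearts 1 to 4 and 7, 2, 2 and 24 genes in control hearts 1 to 4. Control 4 had the most such genes, and its share of the 67 (35.8%) lay beside 42.4% of all features and 34.5% of features of the bright range. For dtg 4, with the next most, the shares were 16.4%, 34.3% and 15.6%, so in both hearts the share among the 67 was close to that of the bright range. The median deviation over the 67 genes was -0.05, 0.0019, 0.05 and 0.0093 in dtg hearts and -0.06, -0.03, -0.0082 and 0.09 in control hearts. Over all features it was 0.01, -0.05, 0.02 and 0.09 in dtg hearts and 0.02, 0.01, -0.05 and -0.03 in control hearts. The 2 medians had opposite signs in dtg 1, dtg 2, control 1, control 2 and control 4. The range over the 8 hearts had a median of 0.48 for the 67 genes, beside 0.73 for all features and 0.52 for features of the bright range.

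**Figure D4:**
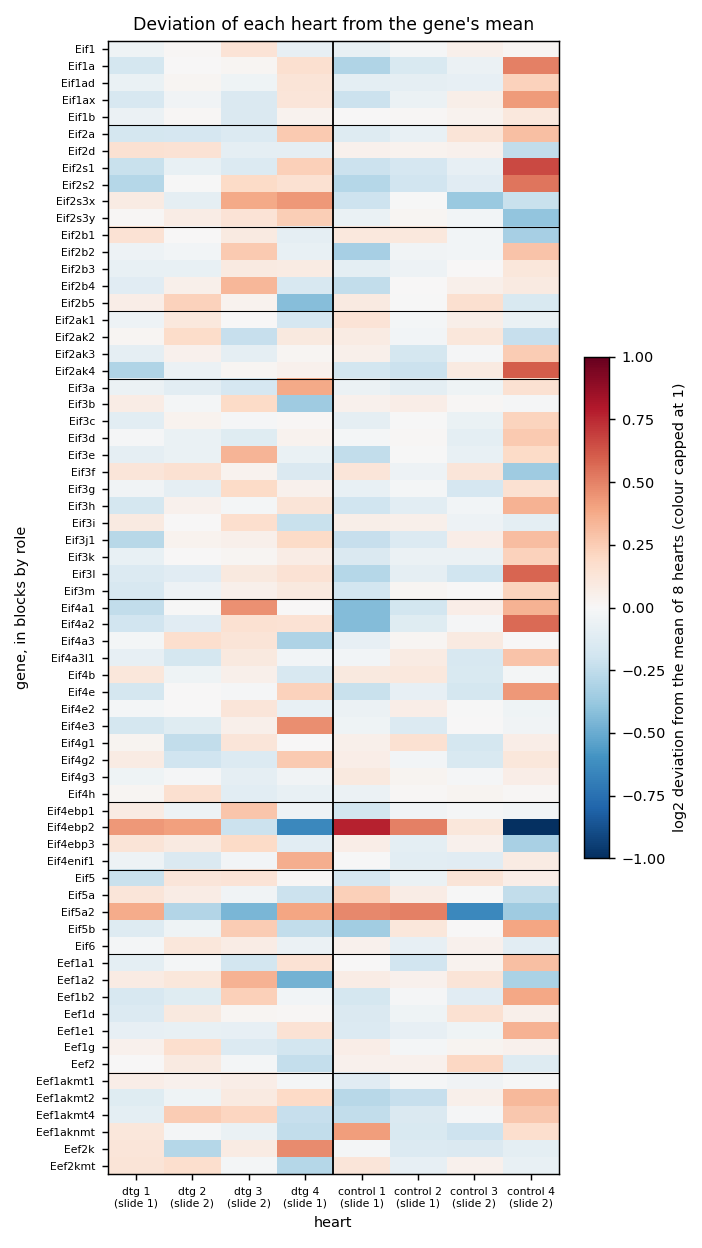
Deviation of each translation factor gene from its mean over the 8 hearts on the log2 scale, 1 line per gene ordered by role and 1 column per heart, dtg hearts left and control hearts right, with colour capped at 1. Control 4 shows the most genes far from their mean, 24 by more than 0.3, and Eif4ebp2 in control 4 is beyond the cap.

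A second probe did not always repeat the heart pattern of the first. Of the 22 genes with at least 2 kept probes, 7 (31.8%) had probes with opposite signs of dtg minus control, against 43.8% of 3727 genes in all, namely Eef2k, Eif1ad, Eif2b3, Eif2s3x, Eif3h, Eif4e2 and Eif5. Control 4 was the highest heart on one probe and the lowest on another for Eif2s1 and Eif3j1, 9.09% of the 22 against 9.5% of all such genes. The second Eif2s1 probe was -2.59, -2.82, -3.21 and -2.96 in dtg hearts 1 to 4 and -2.19, -2.53, -2.79 and -3.45 in control hearts 1 to 4, lowest where the first was highest. Likewise, the second Eif5 probe was 2.27, 2.44, 2.29 and 1.73 in dtg hearts and 2.67, 2.65, 2.36 and 1.42 in control hearts. It was lowest in the hearts numbered 4, a pattern that its first probe did not have.

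**Figure D5:**
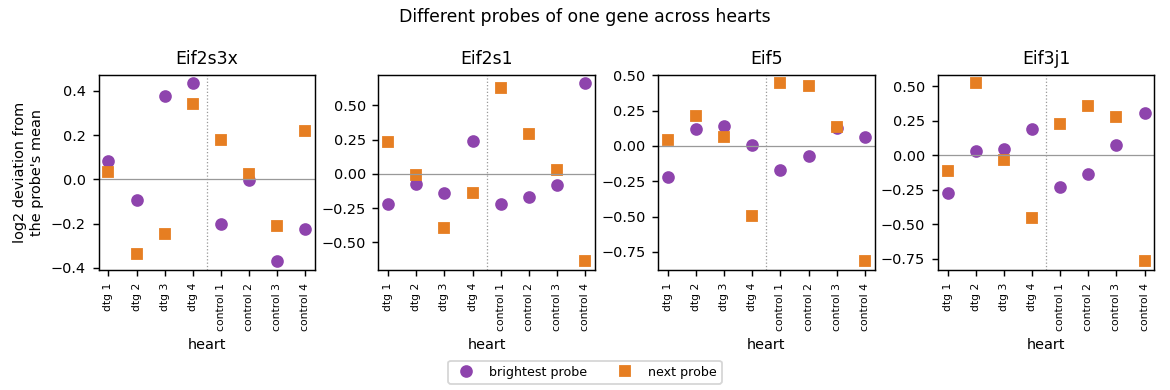
Log2 deviation from the probe's own mean over the 8 hearts for the brightest (circles) and the next probe (squares) of Eif2s3x, Eif2s1, Eif5 and Eif3j1, dtg hearts left of the dotted line and control hearts right. In control 4 the brightest Eif2s1 and Eif3j1 probes are at their highest and the next probes at their lowest.

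Genes that act on or beside these factors were examined as 5 lists, and in each 0 genes passed the adjusted threshold and 0 reached an unadjusted p under 0.05 in limma. Of the 16 genes of mTOR and MNK signalling to initiation, 7 were above and 9 below 0, with a median of -0.04. Tsc2, part of the complex that restrains mTOR, had the smallest p, at -3.70, -3.86, -2.34 and -3.16 in dtg hearts 1 to 4 and -3.75, -3.73, -3.86 and -3.84 in control hearts 1 to 4. Dtg 1, dtg 3 and dtg 4 were above all controls, dtg 1 narrowly, and dtg 2 was not, for a difference of 0.53 (SE 0.31). Of the 12 poly(A)-binding, recycling and termination genes 7 were above and 5 below 0, led by Pabpc4 at 0.17 (SE 0.11). The 10 integrated stress response genes, which are induced when eIF2 is phosphorylated, split 5 and 5, and Asns, asparagine synthetase, had the smallest p at -0.25 (SE 0.17). The 10 mitochondrial translation factors also split 5 and 5, with Mtif2 at 0.15 (SE 0.12), and 3 of the 4 selenocysteine and hypusine genes were above 0, with Eefsec at 0.13 (SE 0.12).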

How the data were processed

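For each array the authors deposited scanner output with a processed signal for each spot on a linear intensity scale, which Agilent Feature Extraction 10.7.3.1 made from Cy3 arrays by subtracting local background, per the file headers. The deposited log2 table, compared with the scanner output, was quantile normalized and centred on each probe's median. Its column medians were 0.0051, 0.00689, -0.0322 and -0.00946 for dtg 1 to 4 and -0.0154, -0.0168, 0.0323 and 0.0178 for control 1 to 4, and no header or label names the tool behind it. The number of arrays limits the precision.

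Of 39429 gene probes, 26369 received a symbol by RefSeq accession from the GRCm38.p6 annotation, and 26095 passed the filter. Control spots and outlier spots were left out, and replicate spots were averaged as log2 values. The 75th percentile over probes, 679.7 to 946.0 intensity units, was subtracted from each array. The fit of dtg minus control used limma 3.58.1 (R 4.3.3) over all 21412 features, with Benjamini-Hochberg adjustment. Pairs of isoforms were tested by exact permutation in Python 3.11.15. Simulated data for this comparison, on 21384 genes, were tested too: true log2 changes of 0.5 were called in 1.49% of 67 genes, those of 1 in 40.3% of 67, and those of 2 in 81.8% of 66, with 8 false calls. The simulated noise was normal and independent for each gene and array, with no slide effect and no deviating arrays. These rates therefore do not measure what the real arrays could detect.

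The genes and lists were chosen with earlier results of these data known. Genes given with values were Igf1r, 20 core factors, the 5 with the smallest p in each direction, the 3 with the widest range over hearts, those without overlap between groups, the isoform pairs and the smallest p of each further list. Genes named as the lowest or highest of a role, beside a slide or as having disagreeing probes were chosen after their values were seen. Alternatives were normexp on pixel medians with an offset of 50, with and without spots darker than their background, quantile and median scaling, the authors' values, other filters, the mean of probes, slide and replicate number as blocks, each slide alone, array weights, and leaving out each heart.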

Additional observations from a re-analysis of the deposited data

Results flagged for a closer look

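In 3 of the 74 groups of 4 hearts examined, over the named genes, 1 heart stood far from the other 3 by Dixon's criterion, and chance alone gives about 1 in 20. Eef1e1 was 0.48 in dtg 4, where the other dtg hearts lay between 0.25 and 0.26. Eif2a was 0.45 in dtg 4, where the other dtg hearts lay between 0.01 and 0.05. Eif2s1 was 2.73 in control 4, where the other control hearts lay between 1.86 and 1.99. The cause was not tested for any of them.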

How the results depend on the processing

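Under the 22 alternatives run with limma, 0 translation factor genes passed the adjusted threshold for dtg minus control, and between 0 and 2 reached an unadjusted p under 0.05. The number of features at an unadjusted p under 0.05, 159 as reported, was 13 with normexp, 102 with normexp without dark spots, 413 without the filter, 251 with slide as a block, 728 within slide 1, 496 within slide 2, 780 with array weights, and 665 with dtg 3, dtg 4 and control 4 left out and slide kept as a block. Leaving out 1 heart gave 98 to 329 such features, with 329 without dtg 2, 258 without dtg 1, 98 without dtg 3 and 279 without control 3. The median over translation factor genes, 0.0031, was 0.21 with normexp and -0.021 to 0.037 without 1 heart. Normexp turned the sign of 16 of the 31 named translation factor genes, array weights of 11, slide 1 alone of 12 and slide 2 alone of 6. Of differences beyond their error, normexp reversed Eef2k to -0.041 and Eif4g3 to 0.094, slide 1 alone reversed Eefsec to -0.062, leaving out dtg 3, dtg 4 and control 4 with slide as a block reversed Asns to 0.0085, and the mean of all kept probes reversed Eif2s3y minus Eif2s3x to 0.089. Eef1a2 minus Eef1a1 was -0.37 within slide 1, and -0.076 to 0.34 without 1 heart, at -0.076 without control 4 and -0.044 without dtg 3. The cause was not tested in these cases. Between slides, 2 translation factor genes passed without the group term, Eif5a2 and Eef1akmt4. Features past the threshold between slides, 2184, numbered 1307 after quantile normalization and 1055 to 2538 without 1 heart, at 1410 without dtg 2, 1055 without control 1 and 1074 when control 2 was left out. The slide difference of Eif5a2 passed in every alternative run, with adjusted p between 0.0015 and 0.0265. Hearts of the same number did not pair, with deviations correlated at 0.54, -0.54, 0.15 and 0.16 for numbers 1 to 4, and the fit with the replicate number as a block gave 277 features and 0 translation factor genes at an unadjusted p under 0.05. Array weights were not run for the isoform pairs, and leaving out dtg 3, dtg 4 and control 4 without a block was an alternative added for the pairs after the data were seen. With 4 hearts a group, simulated log2 changes of 0.5 were called in 1.49% of genes.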
